A study of Mus musculus with 32 samples.

Results

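The cardiac sarcomere genes described here were 10 genes chosen by name: the myosin light chains Myl2, Myl3, Myl4 and Myl7, the troponin subunits Tnnt2, Tnni1 and Tnni3, the actin Actc1 and the myosin heavy chains Myh6 and Myh7. All 10 were found among the 23154 genes of the expression tables. The tables hold 1916 single cells in 32 samples, picked by mouth pipette from the heart, somite, brain (forebrain and hindbrain), skin, lung, liver and intestine of 7 untreated C57BL/6J mouse embryos, of which 3 were of E9.5, 2 of E10.5 and the other 2 of E11.5. A major group was given by the authors' cell annotation for 1815 of the cells: mesoderm-derived cells (MC), hematopoietic cells (HC), neuronal cells (NC) or epithelial cells. Within intestine, liver, lung and skin the annotation further names epithelial (Epi) and mesenchymal (Mes) cells. The heart was sampled in 6 embryos, since E9.5 embryo 3 has no heart sample; that embryo gave a joint lung and liver sample and a joint sample of skin, intestine and somite. E9.5 embryo 2 is labelled female and the other embryos male.

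A sarcomere is the contractile unit of striated muscle, in which thick filaments of myosin pull on thin filaments of actin. Each myosin heavy chain carries a regulatory and an essential light chain, and the troponin complex on the thin filament makes the pull depend on calcium. In the mouse heart, Myl2 and Myl7 are the ventricular and atrial regulatory light chains, Myl3 and Myl4 the ventricular and atrial essential light chains, and Myh6 and Myh7 the alpha and beta heavy chains. Tnni1 and Tnni3 are the slow skeletal and cardiac forms of the inhibitory troponin subunit, of which the former is expressed in the embryonic heart. Tnnt2 is the cardiac subunit that binds tropomyosin, and Actc1 is cardiac alpha actin, which is also made in developing skeletal muscle.

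The promoters of the 3 members that hold a CArG box, the binding motif of serum response factor, are shown with that motif in capitals. They are 300-base windows of RefSeq (GRCm38.p6), 5′ to 3′ on the strand of the gene, from 250 bases before to 50 after the start that RefSeq gives. Actc1 lies on the reverse strand at chr2:114052826-114053125 (its TATAAA is also in capitals), Myl3 on the forward strand at chr9:110763428-110763727 and Myl7 on the reverse strand at chr11:5898733-5899032.
Actc1: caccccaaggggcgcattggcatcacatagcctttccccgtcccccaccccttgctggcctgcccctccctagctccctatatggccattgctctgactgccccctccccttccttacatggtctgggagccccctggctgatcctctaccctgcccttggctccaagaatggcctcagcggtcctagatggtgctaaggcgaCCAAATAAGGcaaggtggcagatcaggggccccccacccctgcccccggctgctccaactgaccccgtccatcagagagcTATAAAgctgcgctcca
Myl3: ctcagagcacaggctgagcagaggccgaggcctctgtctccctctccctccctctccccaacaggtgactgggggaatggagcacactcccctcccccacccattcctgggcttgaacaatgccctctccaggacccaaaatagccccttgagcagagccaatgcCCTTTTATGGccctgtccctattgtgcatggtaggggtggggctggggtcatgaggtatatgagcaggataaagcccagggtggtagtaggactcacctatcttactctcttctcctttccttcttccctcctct
Myl7: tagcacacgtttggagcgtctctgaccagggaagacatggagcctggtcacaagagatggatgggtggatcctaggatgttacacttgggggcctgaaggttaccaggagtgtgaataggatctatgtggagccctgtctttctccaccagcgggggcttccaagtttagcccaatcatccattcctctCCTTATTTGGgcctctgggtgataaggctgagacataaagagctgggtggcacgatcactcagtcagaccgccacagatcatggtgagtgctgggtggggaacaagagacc
The box ends 38 bases before that start in Actc1, 76 in Myl3 and 52 in Myl7. Searched on both strands, it was found in a window of 3 of the 10 genes and of 1.81% of all 27025 genes (some genes have more than 1 window). TATAAA was found in 3 member genes (Actc1, Myh6 and Myl2) and 15.7% of all genes, GATAA in 5 and 28.4%, CANNTG in 9 and 75%, AGGTGT in 2 and 15.7%, and the binding motif of MEF2 factors in 0 and 0.636%, with motif matches allowed to overlap. TATAAA begins 33 bases after the RefSeq start in Actc1 and 1 base after it in Myh6. In Myl2 its match is on the other strand, from 216 to 211 bases before the RefSeq start. A match describes the letters of the window and not a bound site. The RefSeq and GENCODE starts also differ for some members: the RefSeq start lies 21817 bases inside the GENCODE gene for Myl3 and 673 for Actc1, both Myl2 windows lie wholly before the GENCODE gene, and for Myl7 and Myl4 the starts are the same base.

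In GENCODE M21 (GRCm38), Myh6 (chr14:54941921-54966927) and Myh7 (chr14:54970684-54994626) are neighbors on the reverse strand of chromosome 14, and Tnni1 (chr1:135779434-135810989) and Tnnt2 (chr1:135836354-135852260) are neighbors on the forward strand of chromosome 1. Myl4 (chr11:104550663-104595753) and Myl7 (chr11:5896637-5898782) share chromosome 11. The others lie alone: Myl2 at chr5:122100951-122113472, Myl3 at chr9:110741861-110769798, Tnni3 at chr7:4518305-4524229 and Actc1 at chr2:114047282-114053548. Myh6 and Myh7 are close in sequence and only uniquely mapped reads were counted, so reads shared between them could be missing from both.

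Values are named TPM as in the files: the UMIs, or tagged molecules, counted for a gene in a cell and scaled to a cell total of 1000000, so that no gene length enters. A level is the mean over the cells of an embryo of log2(TPM/10 + 1), with at least 3 cells, and the embryo is the replicate. Depth ran from 20326 to 2524348 UMIs per cell with a median of 306271. Hearts at E9.5 are labelled HiSeq 2500 and later hearts HiSeq 4000, so day and platform cannot be told apart between E9.5 and later hearts. The median depth of heart MC cells also moved with day: it was 281752 and 785040 UMIs in the embryos of E9.5, 124131 and 444276 at E10.5, and 164630 and 119190 at E11.5. In 14 cases a pair of columns held the same values, and each pair was counted as 1 cell, which left 1801 cells with a major group.

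Across 15 cell sets, all 10 genes had their highest mean level in the 236 heart MC cells. There the mean of the 6 embryos was 8.57 ± 0.50 (SD, n = 6) for Myl7 and 8.07 ± 0.65 for Actc1, the most abundant members. Then came Myl4 (7.0 ± 0.71), Tnnt2 (6.84 ± 0.72), Tnni1 (6.75 ± 0.42), Myl2 (6.31 ± 1.54), Myl3 (6.11 ± 0.88) and Tnni3 (4.92 ± 0.79). The heavy chains were lowest, with Myh6 at 3.81 ± 0.64 and Myh7 at 3.09 ± 0.89. Blood cells from the heart ranked second for 9 genes, and liver Mes cells for Tnni1. The ranges of heart MC and of the set ranked second did not overlap for Myl4, Myl7, Actc1 and Myh6 and overlapped for the other 6 genes. Among the 11 sets other than heart MC, heart HC, somite MC and liver Mes, the highest level was 4.26, for Myl7 in lung Epi cells of E9.5 embryo 2. These sets leave out mesoderm-derived liver cells not named Mes, and in the 5 of these in E9.5 embryo 1 Myl7 stood at 8.40.

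**Figure D1:**
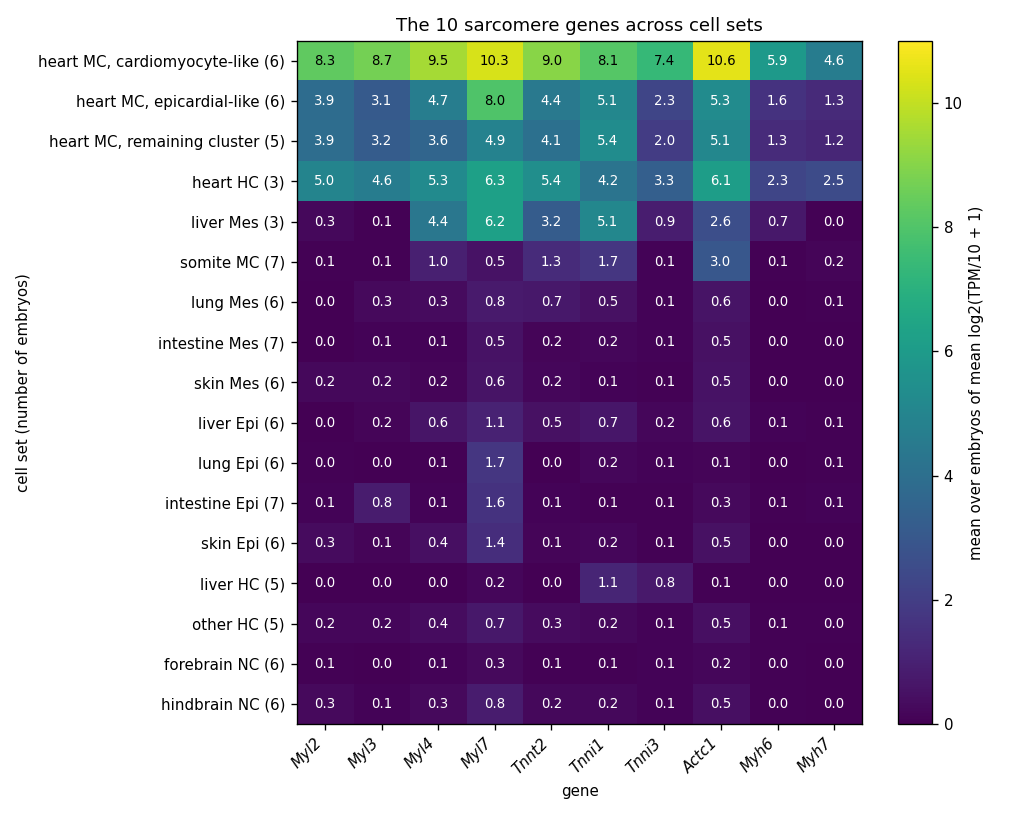
Mean level of each of the 10 genes (mean over embryos of log2(TPM/10 + 1), color and printed value) in each cell set. Heart MC cells are split into the cardiomyocyte-like, epicardial-like and remaining cells described below. The cardiomyocyte-like row is the highest for every gene, liver Mes cells share Myl7, Tnni1 and Myl4 with it, and somite cells share mainly Actc1.

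Heart MC cells are a mixture. Clustered without the 10 genes, they were divided into 6 clusters, a number that was chosen and not found. Of these, 4, numbered 3 to 6, are called cardiomyocyte-like (125 cells), with Smpx, Tnnc1 and Pln among the leading genes of clusters 3 and 4 and Ttn, Slc8a1 and Nexn among those of clusters 5 and 6. A cluster led by Dcn, Upk3b, Tcf21 and Upk1b is called epicardial-like (61 cells), and a cluster led by Hapln1, Pdlim3, Ramp2 and Igf1 was left unnamed (50 cells). All 10 cardiomyocyte markers used for the name (none a member) were expressed in most cardiomyocyte-like cells, with a summed level of 12766 to 14494 TPM per embryo. Of the 5 skeletal muscle markers, Myf5, Myod1 and Myog had no UMI in these cells, while Acta1 was expressed in 93.6% and Mylpf in 54.4% of them. Every cardiomyocyte-like cell had at least 8 members at 100 TPM or more, and 80 of the 125 had all 10. In these cells the 10 genes together took 5.31% of all UMIs.

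The question of the stages is how the contractile genes changed from E9.5 to E11.5. In heart MC cells 2 members rose with day, the light chains Myl2 and Myl4, and 1 fell, the heavy chain Myh6. Of 13549 genes tested, 9.94% were called (0.369% higher, 9.57% lower; limma, adjusted p under 0.05 and a slope of at least 0.5 per day). The median slope of all genes was −0.12 per day and that of the members 0.35.

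Myl2 stood at 5.47 and 6.18 in the embryos of E9.5, at 5.55 and 4.42 at E10.5 and at 7.59 and 8.62 at E11.5. Both E11.5 hearts lay above the other 4, while E9.5 and E10.5 overlapped. The slope was 1.14 per day (SE 0.35, limma adjusted p = 0.0398, n = 6).
Myl4 was 6.42 and 6.38 at E9.5, 6.82 and 6.68 at E10.5, and 7.50 and 8.19 at E11.5, so the 3 days did not overlap and each was above the one before. Its slope was 0.72 (SE 0.14, limma adjusted p = 0.00737, n = 6). Myh6 fell from 4.78 and 4.31 through 3.52 and 3.78 to 3.42 and 3.03, again without overlap between days, with a slope of −0.66 (SE 0.16, limma adjusted p = 0.0175, n = 6).

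The other 7 members did not pass. Myl3 had a slope of 0.61 (limma adjusted p = 0.081), Tnni3 of 0.55 (0.0958), Tnni1 of 0.38 (0.0575) and Actc1 of 0.32 (0.25). Myl7, the most abundant member, had a slope of 0.17, Tnnt2 of 0.12 and Myh7 of −0.19. These calls depended on the embryos and the fit. Without E11.5 embryo 2 the slope of Myl2 was 0.63 (adjusted p = 0.278), and it was also not called without E11.5 embryo 1 (0.117) or E10.5 embryo 1 (0.0532). Myh6 was not called without E9.5 embryo 1 (0.0921), E9.5 embryo 2 (0.0703) or E11.5 embryo 2 (0.0713), while its slope stayed below 0. By tool, edgeR on summed UMIs called 0 of the 10, with Myl2 at an adjusted p of 0.104, Myl4 at 0.12 and Myh6 at 0.152. With cells thinned to 100000 UMIs 1 member was called, Myh6, and Myl4 had a slope of 0.29. This fit left out the 48 of 236 heart MC cells with fewer UMIs, of which 37 were cardiomyocyte-like, so its mix of cells also differed. Over all genes, the split of calls was 50 higher and 1297 lower on the full counts, and 3 higher and 5 lower with edgeR.

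Within the days sequenced on 1 platform, E11.5 against E10.5, 6 members were called higher in heart MC cells, where 0.278% of 12577 genes were called higher, 1.23% lower and 1.51% in all. Myl2 differed by 3.11 (limma adjusted p = 2.75e-06), Myl3 by 1.89, Tnni3 by 1.49, Tnnt2 by 1.37, Actc1 by 1.35 and Myl4 by 1.10. Within the cardiomyocyte-like cells Myl2 differed by 2.86 over these days (adjusted p = 2.76e-07), whereas Myl3 gave 0.37, Tnni3 0.18, Tnnt2 0.64, Actc1 0.14 and Myl4 −0.19, with adjusted p from 0.0651 to 0.756. The share of cardiomyocyte-like cells in the heart MC set moved with this: it was 57.8% and 55.6% of the cells at E9.5, 40.0% and 39.5% at E10.5, and 54.3% and 72.7% at E11.5. The slope of this share was 3.42 percentage points per day (exact permutation test, two-sided, p = 0.689, n = 6), and the cells were picked by hand. Its part in the differences was not tested.

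Within cardiomyocyte-like cells the same 3 members were called by day, Myl2 and Myl4 higher and Myh6 lower. Here 16.6% of 12102 genes were called (0.463% higher, 16.1% lower), the median slope of all genes was −0.19 and that of the members 0.31. Myl2 was 7.79 and 7.89 at E9.5, 8.07 and 6.13 at E10.5, and 9.74 and 10.18 at E11.5, with a slope of 1.06 (SE 0.24, limma adjusted p = 0.00338, n = 6). E10.5 embryo 2 stood lowest of the 6, and the E11.5 hearts stood highest.
Myl4 rose from 8.88 and 8.40 at E9.5 to 9.92 and 10.20 at E10.5 and was 9.92 and 9.84 at E11.5, with a slope of 0.62 (SE 0.11, limma adjusted p = 0.00054). Its rise thus lay between E9.5 and E10.5, the days that also differ in platform, and E11.5 against E10.5 gave −0.19 (adjusted p = 0.425). Without E9.5 embryo 2 the slope was 0.40, below the minimum.

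Myh6 in cardiomyocyte-like cells was 7.09 and 6.26 at E9.5, 6.09 and 7.06 at E10.5, and 5.20 and 3.85 at E11.5. The E11.5 hearts were the lowest, and E9.5 and E10.5 overlapped. Its slope was −1.08 (SE 0.23, limma adjusted p = 0.00189, n = 6), and E11.5 against E10.5 gave −2.05 (adjusted p = 0.016), so that Myl2 and Myh6 also passed within the platform, where 0.0654% of 10711 genes were called higher and 0.42% lower. With edgeR, Myl2 alone of the 3 was called (1.22, adjusted p = 0.00266), while Myl4 had an adjusted p of 0.105 and Myh6 of 0.537; over all genes edgeR called 82 higher and 22 lower, against 56 and 1953 in limma. Without the filter on low genes limma called 0 of the 10 and 0 of all 15435 genes, 4702 of which had an unadjusted p under 0.05, with adjusted p of 0.187 for Myl2, 0.101 for Myl4 and 0.0971 for Myh6.

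Another 4 members passed the adjusted p in cardiomyocyte-like cells with slopes under the minimum of 0.5: Tnni3 (0.47), Myl3 (0.40), Tnni1 (0.33) and Actc1 (0.29). The slope of Tnni3 was 0.0494 without E9.5 embryo 2, its lowest heart (5.90), and 0.81 without E9.5 embryo 1. Myl7 (−0.05), Tnnt2 (0.07) and Myh7 (−0.38, adjusted p = 0.299) did not. Myh7 was 4.73 and 6.27 at E9.5, 3.85 and 3.36 at E10.5 and 4.84 and 4.67 at E11.5, so its lowest hearts were those of E10.5. Different clusters held most of the class at different days: cluster 6 held 17 and 18 of the cells of the E9.5 embryos, cluster 5 held 9 of those of E10.5 embryo 2 and cluster 4 held 11 of those of E10.5 embryo 1, and clusters 3 and 4 held 8 and 8 of those of E11.5 embryo 1 and 14 and 10 of those of E11.5 embryo 2. The clusters also differed in level. Over the cells of clusters 3, 4, 5 and 6, the mean of Myl2 was 10.37, 9.03, 5.47 and 8.02. That of Myl4 was 9.93, 9.77, 9.54 and 8.77, and that of Myh6 was 3.62, 6.0, 6.82 and 6.65. The part of this mix of clusters in the slopes was not tested. Median depth in the class was 305422 and 781778 UMIs at E9.5, 80573 and 375868 at E10.5 and 99861 and 107657 at E11.5, and its part in these slopes was not tested beyond the thinned fit, in which all 3 members were still called.

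**Figure D2:**
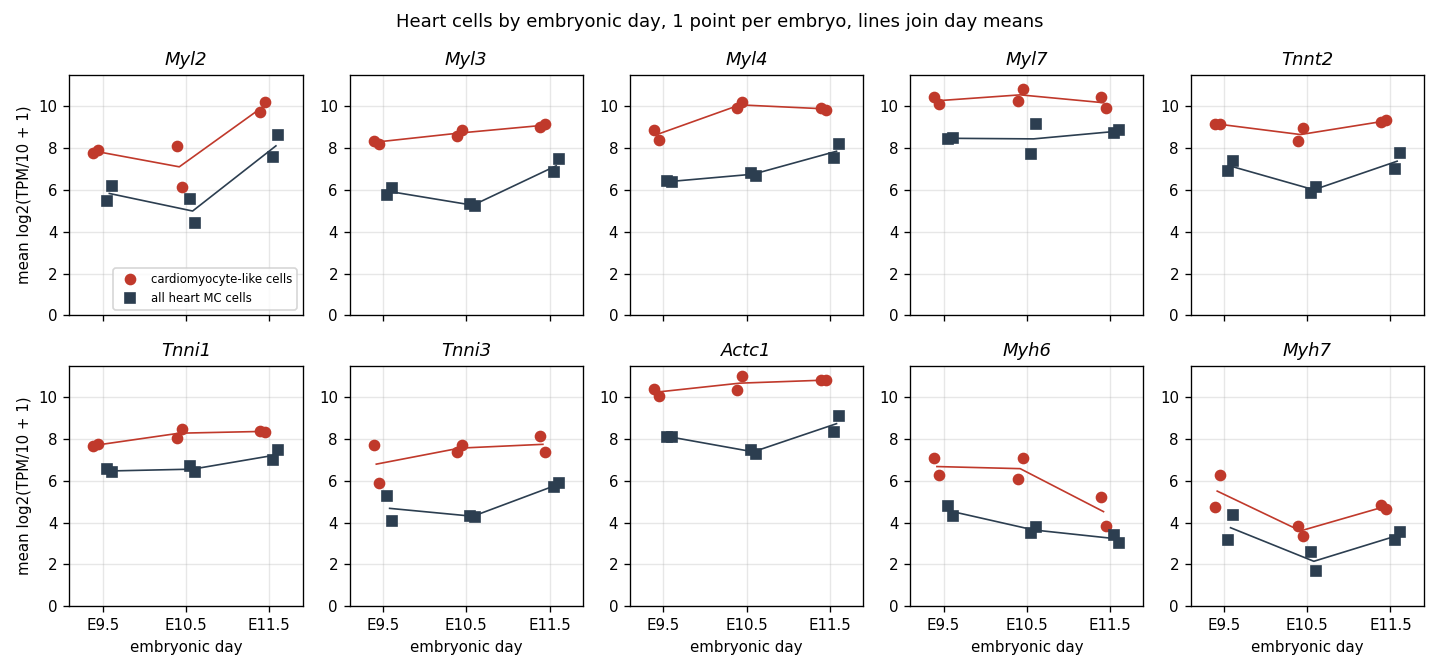
Level (mean of log2(TPM/10 + 1)) of each of the 10 genes by embryonic day, 1 point per embryo, in all heart MC cells and in cardiomyocyte-like cells. Myl2 is highest in both E11.5 hearts and Myh6 is lowest in them, while Myl7 and Tnnt2 show no order by day.

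Other sarcomere and calcium genes of the heart did not move as one group. Of 14 further cardiac sarcomere genes, 3 rose with day in cardiomyocyte-like cells and 5 fell (median slope −0.14). Among all 12102 genes 0.463% were called higher and 16.1% lower, so calls of a fall were common here. They also depended on the fit, with 22 genes called lower by edgeR and 0 by limma without the filter. The thin-filament calcium sensor Tnnc1 rose by 0.55 per day and Myoz2 and Smpx were also called higher, whereas the giant spring protein titin (Ttn) had a slope of −1.80, the Z-disc actinin Actn2 of −0.75 and the myosin-binding protein Mybpc3 of −0.51. Of 6 calcium-handling genes, Pln, the inhibitor of the calcium pump, rose by 1.10, and the release channel Ryr2 (−0.83), the pump Atp2a2 (−1.08) and the exchanger Slc8a1 (−1.82) fell. Of 10 cardiac regulators, Nkx2-5 (−0.80), Tbx20 (−0.73) and Mef2c (−1.22) fell and 0 rose. Of the natriuretic peptides, Nppa had a slope of −0.21 and Nppb of 0.42, neither called. In the skeletal list (6 of 12 tested), Tnnt1 was called higher and Mylpf lower, and of 3 smooth muscle genes tested Acta2 was called lower.

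Paired isoforms were also read as shares of their summed UMIs. Myl2 made up 19.4% and 24.0% of Myl2 plus Myl7 in heart MC cells at E9.5, 30.0% and 15.8% at E10.5, and 41.0% and 55.0% at E11.5. The E11.5 hearts were above the other 4, with a slope of 13.1 percentage points per day (exact permutation test, two-sided, p = 0.0667, Benjamini-Hochberg adjusted over 4 shares 0.267, n = 6). Myh6 made up 78.9% and 52.4% of the heavy chain pair at E9.5, 75.7% and 83.0% at E10.5, and 58.1% and 42.2% at E11.5, with a slope of −7.75 (exact permutation p = 0.378, n = 6). This slope was −1.28 without E11.5 embryo 2 and −16.5 without E9.5 embryo 2, and E11.5 against E10.5 gave −29.2 points.
Myl7 and Myh6 thus had the larger shares of their pairs in most hearts, and in E11.5 embryo 2 Myl2 and Myh7 took more than their partners. The chamber of the cells is not labelled, and whether the shares follow it was not tested. The mean levels of Myl2 and Myl7 were 10.37 and 10.12 in cluster 3, and 5.47 and 10.98 in cluster 5. Myl3 took 28.6% to 48.2% of Myl3 plus Myl4, and Tnni3 took 30.2% to 52.2% of Tnni3 plus Tnni1. Their slopes were −1.93 and −0.87 points per day (exact permutation p = 0.644 and 0.933, n = 6). None of the 4 slopes passed after adjustment. The days allow only 90 arrangements, too few for a lone share to pass, so this does not show that the shares were steady.

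The level of Myl2 also varied from cell to cell. Its median in cardiomyocyte-like cells was 3811 and 3111 TPM in the E9.5 embryos, 6823 and 112 in those of E10.5, and 13204 and 15989 in those of E11.5. Below 100 TPM were 2 of 26 and 0 of 25 cells at E9.5, 1 of 14 and 8 of 17 at E10.5, and 0 of 19 and 0 of 24 at E11.5. Of the 11 low cells 8 thus came from 1 heart, and at E11.5 no low cell was found, which allows a share of up to 6.98% of the 43 cells of both hearts (3 cells, counting error only). This limit takes the cells as independent and does not cover other hearts of that day. Across the 125 cells, Myl2 correlated with Myl3 (r = 0.56) and Myh7 (r = 0.56) and inversely with Myl7 (r = −0.55) and Myh6 (r = −0.48). These are descriptions over cells that share embryos and depth. Within single embryos the correlation of Myl2 with Myl7 ran from −0.76 to −0.24 and that with Myl3 from 0.27 to 0.84, whereas those with Myh7 (−0.32 to 0.85) and Myh6 (−0.81 to 0.17) changed sign between embryos.

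**Figure D3:**
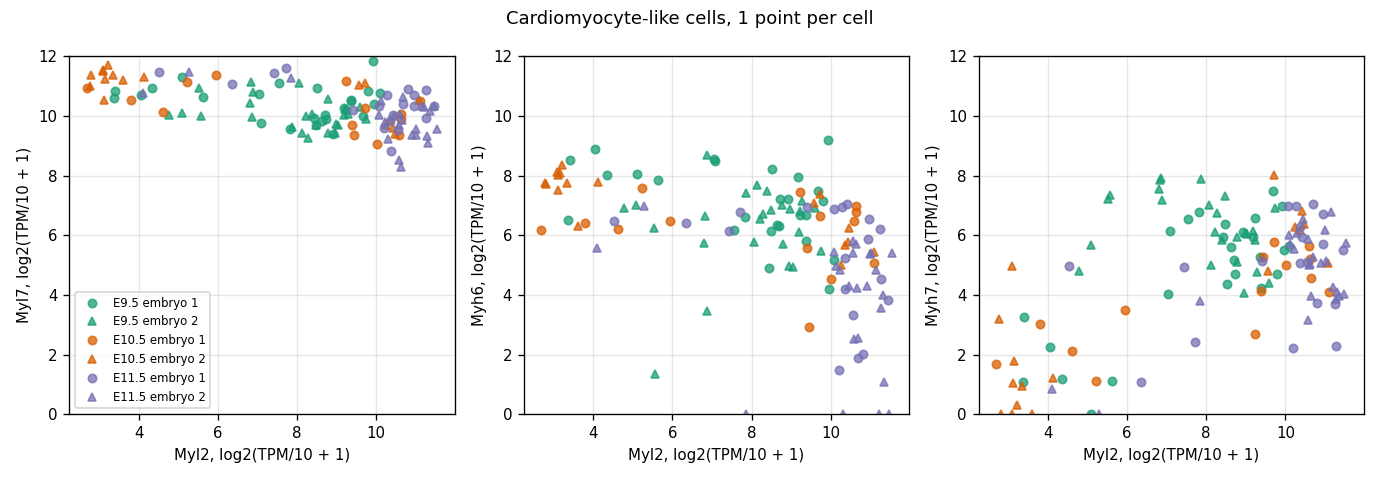
Each of the 125 cardiomyocyte-like cells by its level of Myl2 (log2(TPM/10 + 1), horizontal) and of Myl7, Myh6 and Myh7 (vertical), colored by day with a symbol for each embryo. Of the 11 cells with Myl2 below 100 TPM, 8 are from E10.5 embryo 2.

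The make-up of the 10 genes also differed between cell types. In cardiomyocyte-like cells Actc1 took 25.2% of the UMIs of the 10 genes, Myl7 23.8%, Myl4 11.3%, Tnnt2 10.6%, Myl2 10.05%, Myl3 7.56%, Tnni1 4.83%, Tnni3 3.36%, Myh6 2.14% and Myh7 1.23%. Epicardial-like cells held 5572 TPM of the 10 genes and cardiomyocyte-like cells 53083. There Myl7 took 59.6% of their UMIs (46.4% to 66.1% per embryo) and Actc1 10.6%. Epicardial-like cells had 2.41 to 7.98 UMIs of Myl7 for each of Actc1 in the 6 embryos, and cardiomyocyte-like cells 0.625 to 1.05, so that the ranges did not overlap. The unnamed cluster was closer to the myocyte make-up except for Tnni1, which took 14.0%. In single embryos its largest gap to the cardiomyocyte-like make-up ran from 3.35 to 36.1 points. These sets were built by clustering, so the differences are given without a test.

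**Figure D4:**
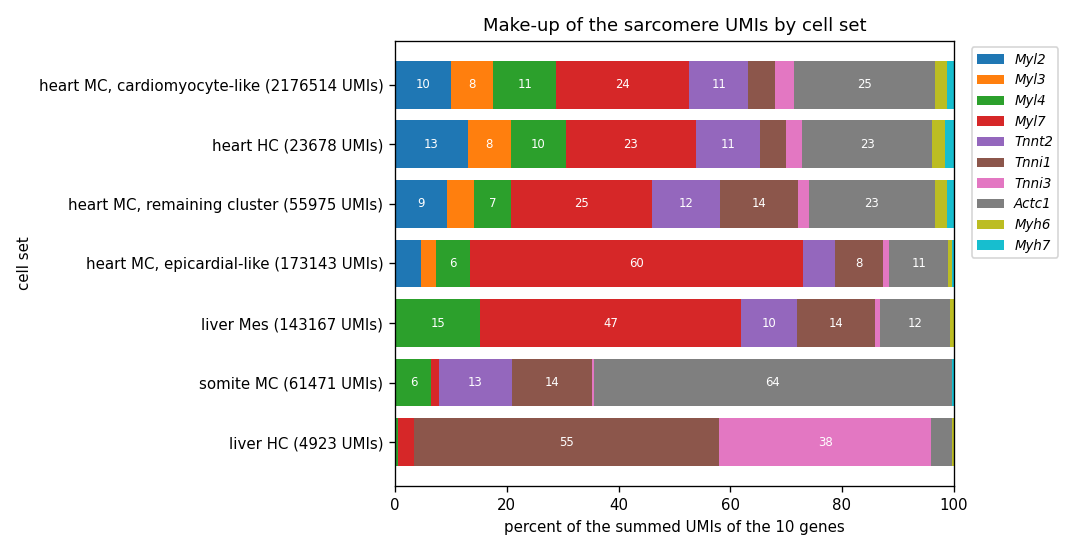
Share of each gene in the summed UMIs of the 10 genes (percent, stacked bars) in each cell set. Blood cells of the heart have nearly the make-up of cardiomyocyte-like cells, epicardial-like and liver Mes cells are dominated by Myl7, and somite cells by Actc1.

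Against the somite, the comparison asks how far the genes mark the heart among mesoderm-derived cells. All 10 were higher in heart MC than in somite MC cells, in 6 of 6 embryos with both and with no overlap between the groups, where 2.22% of 14651 genes were called higher, 4.02% lower and 6.24% in all. The difference was 8.03 for Myl7 (SE 0.23, limma adjusted p = 5e-14), 6.26 for Myl2, 6.04 for Myl3, 6.04 for Myl4, 5.49 for Tnnt2, 5.09 for Actc1, 5.004 for Tnni1, 4.83 for Tnni3, 3.73 for Myh6 and 2.94 for Myh7 (adjusted p = 2.02e-06). The median was 5.29, against −0.05 for all genes. All 10 were also called by edgeR, which split the calls of all genes into 1612 higher and 696 lower, against 325 and 589 in limma. Of 14 further cardiac sarcomere genes 13 were also higher (Ttn by 2.12, Tnnc1 by 4.98, Tpm1 by 2.79), as were 3 of 6 calcium genes, 6 of 10 cardiac regulators (Nkx2-5 by 2.57, Gata4 by 3.08), both natriuretic peptides and the 3 smooth muscle genes tested. Of the 12 skeletal muscle genes 2 were higher in the heart, Acta1 (2.14) and Myl1 (3.05), and 3 lower, the myogenic factors Myf5 (−1.30) and Myog (−1.84) and the fast troponin C Tnnc2.

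In the somite itself, whose cells form skeletal muscle among other tissues, the members whose level passed 1 in any embryo were Actc1, Tnni1, Tnnt2 and Myl4. Actc1 was 1.64, 0.41 and 2.43 in the E9.5 embryos, 3.33 and 3.46 at E10.5, and 3.64 and 5.93 at E11.5. Every later embryo was above every E9.5 embryo. Tnni1 was 1.15, 0.21 and 1.42 at E9.5, 1.63 and 1.51 at E10.5, and 2.17 and 4.14 at E11.5.
Tnnt2 was 4.08 in E11.5 embryo 2, which stood apart from the other 6 embryos (0.15 to 1.67). By day limma called 0.0% of 12919 genes and 0 of the 10, with 1650 genes at an unadjusted p under 0.05, and edgeR called 6 genes. The slope was 1.66 per day for Actc1 (limma adjusted p = 0.0743, n = 7), 1.09 for Tnni1 (0.161), 1.09 for Tnnt2 (0.216) and 0.85 for Myl4 (0.212). Actc1 was called on the log2(TPM + 1) scale (2.30 per day) and without E11.5 embryo 1 (2.16 per day) or E9.5 embryo 3 (1.88 per day).

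Compared with the mean of intestine, lung and skin Mes cells, somite cells were higher in 2 members: Actc1 by 2.45 (SE 0.42, limma adjusted p = 0.000503) and Tnni1 by 1.48 (SE 0.27, adjusted p = 0.00122), each in 6 of 7 embryos. The fit held 7 somite means against 19 organ means of the same 7 embryos, which entered as separate values although several share an embryo, and with the embryo as a block the adjusted p was 0.00115 for Actc1 and 0.00268 for Tnni1. Over all 14457 genes 1.07% were called (0.491% higher, 0.574% lower). Myl4 (0.77, adjusted p = 0.0486) was under the minimum difference, and Tnnt2 (0.99) had an adjusted p of 0.0943. With these, 7 of 12 skeletal muscle genes were higher in the somite, among them Myf5 (1.26), Myog (1.80), Acta1 (1.30) and Myl1 (1.40), and 2 of 13 further sarcomere genes tested, Ttn (1.76) and Tnnc1 (1.03), which skeletal muscle also uses. The 5 skeletal muscle markers summed to 7.11 to 2729 TPM over the somite embryos. Of the UMIs of the 10 genes in somite cells 64.1% were of Actc1, 14.5% of Tnni1, 13.1% of Tnnt2 and 6.24% of Myl4. Myl2, Myl3, Tnni3, Myh6 and Myh7 stood between 0.00 and 0.48 in every somite embryo.

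Liver Mes cells, found with at least 3 cells an embryo only at E9.5, held a part of the set. Myl7 was 8.02, 5.45 and 5.23 in embryos 1, 2 and 3 (29, 25 and 22 cells). Tnni1 was 6.43, 5.58 and 3.28, and Myl4 was 6.73, 4.20 and 2.20. All 3 genes were highest in embryo 1, lowest in embryo 3, and above every embryo mean of the other Mes cells of that day. Of these embryos only embryo 3 is labelled HiSeq 4000, so its lower levels and its platform cannot be told apart.
Against intestine, lung and skin Mes cells at E9.5, Myl7 was higher by 4.97 (SE 0.60, limma adjusted p = 0.00378), Tnni1 by 4.66 (SE 0.51, adjusted p = 0.00206) and Myl4 by 4.11 (SE 0.68, adjusted p = 0.0184), each in 3 of 3 embryos, where 0.349% of 13171 genes were called higher and 0.471% in all. Tnnt2 (2.69, adjusted p = 0.229) and Actc1 (1.80, adjusted p = 0.479) did not pass, and Myh7 was too low to be tested. The 7 means of the other Mes cells also share the 3 embryos, and with the embryo as a block the same 3 members were called (adjusted p from 0.000713 to 0.00956). Leaving out embryo 2 or embryo 3 left 0 of all 12212 or 12471 genes called, with 630 and 992 at an unadjusted p under 0.05, while the difference of Myl7 was 4.14 to 5.81, that of Tnni1 3.95 to 5.55 and that of Myl4 2.94 to 5.06 with any embryo left out.

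The ventricular light chains and the beta heavy chain were near absent from liver Mes cells. Myl2 was 0.29, 0.48 and 0.00, Myl3 0.11, 0.10 and 0.00, and Myh7 0.05, 0.08 and 0.00. Actc1 (5.11, 2.76 and 0.00), Tnnt2 (5.57, 3.66 and 0.40), Tnni3 (1.61, 0.89 and 0.09) and Myh6 (1.42, 0.67 and 0.08) had a wide spread between embryos, with embryo 3 at or near 0. For Myl2 in embryo 3, with 0 UMIs, the limit was 0.438 TPM, counting 3 UMIs over its cells.
Heart MC cells of E9.5 were higher than liver Mes cells in 6 members, where 0.971% of 13182 genes were called higher and 1.28% in all: Myl3 (5.85, limma adjusted p = 3.82e-05), Myl2 (5.57), Actc1 (5.47, adjusted p = 0.0477), Myh6 (3.82), Tnni3 (3.82) and Myh7 (3.71). Each was higher in 2 of 2 embryos with both. Myh7, at least, passed the filter on low genes only through the heart cells, so its call is a description and not a test. No liver Mes cell held more than 9.68 TPM of it. Tnni1 (1.37, adjusted p = 0.451), Myl4 (2.02, adjusted p = 0.419), Myl7 (2.23, adjusted p = 0.192) and Tnnt2 (3.93, adjusted p = 0.166) did not pass. Myl4 in embryo 1 was higher in the liver Mes cells (6.73) than in the heart MC cells (6.42). These heart cells are all labelled HiSeq 2500, while liver Mes embryo 3 is labelled HiSeq 4000, and the part of platform was not tested. With the embryo as a block 8 members were called, Myl7 and Tnnt2 in addition, in a fit with 1 degree of freedom left, where 215 genes were called higher and 197 lower. In the fit without a block, leaving out embryo 1 or embryo 2 left 0 of all 12260 or 12334 genes called (1096 and 668 at an unadjusted p under 0.05), while the difference of Myl3 was 5.70 to 6.04 and that of Myl2 5.33 to 5.94 with any embryo left out.

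**Figure D5:**
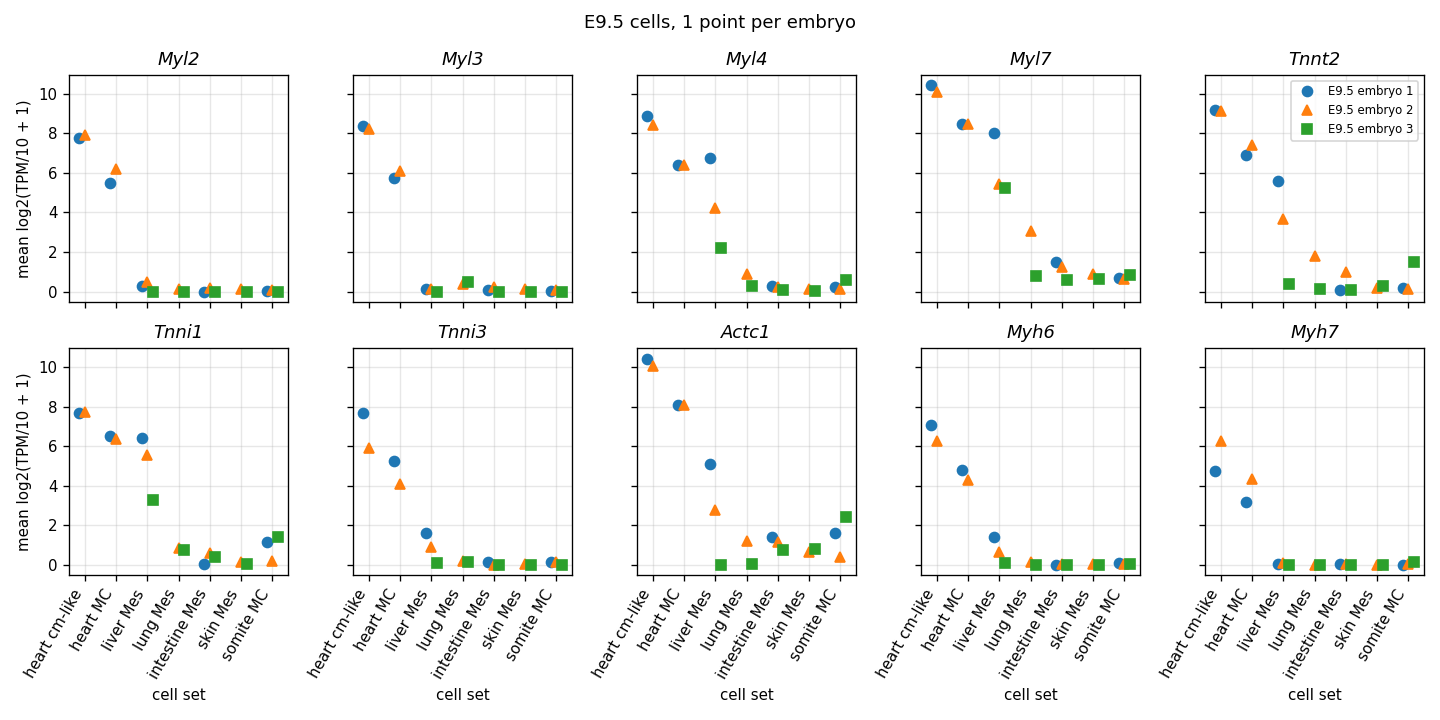
Level (mean of log2(TPM/10 + 1)) of each gene at E9.5 in cardiomyocyte-like (cm-like), heart MC, liver Mes, lung Mes, intestine Mes, skin Mes and somite MC cells, 1 point per embryo. Myl7, Myl4 and Tnni1 of liver Mes cells lie above the other Mes sets in all 3 embryos, while Myl2, Myl3 and Myh7 lie near 0.

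A UMI of Tnni1 was found in each of the 76 liver Mes cells, of Myl7 in 98.7% of them and of Myl4 in 93.4% (98.6%, 98.6% and 89.0% of 73 cells thinned to 100000 UMIs). At least 5 members at 100 TPM or more were found in 18 of 29 liver Mes cells of embryo 1, 7 of 25 of embryo 2 and 0 of 22 of embryo 3, against 1 of 199 somite cells. This split used the members and is a description, given within embryos 1 and 2 since 18 of the 25 cells are from embryo 1.
In embryo 1 the level of Acta2, smooth muscle actin, was 6.60 in the cells with at least 5 members and 3.56 in the others, and in embryo 2 it was 6.37 and 3.91. Tbx5 was 3.26 against 1.97 and 3.25 against 0.79. Tbx18 went in opposite directions, with 4.70 against 5.15 in embryo 1 and 3.63 against 1.11 in embryo 2. Of the markers listed for liver mesenchyme, Wt1, Lhx2, Gata4 and Foxf1 were lower in the cells with at least 5 members in both embryos. Wt1 was 1.59 against 3.95 and 1.72 against 1.75, and Lhx2 was 0.11 against 0.74 and 1.23 against 1.67. Tcf21 and Hlx went in opposite directions. The epicardial marker Upk3b was also lower, with 1.51 against 4.21 and 0.78 against 1.16. Of the 10 cardiomyocyte markers, 6 were higher in the cells with at least 5 members in both embryos: in embryo 1 Csrp3 was 3.41 against 0.97, Mybpc3 3.31 against 1.34, Ttn 3.21 against 0.80, Tnnc1 2.94 against 0.44, Ryr2 1.75 against 0.43 and Myom1 0.77 against 0.125. The other 4, Actn2, Nkx2-5, Nppa and Pln, stood at 0.00 to 0.345 in either kind of cell.
Liver Mes cells as a whole also differed from the other Mes cells in the regulators Gata4 (3.46) and Hand2 (2.77), 2 of 9 regulators tested, and in none of 12 further sarcomere, 4 calcium, 6 skeletal or 3 smooth muscle genes tested. The cardiomyocyte markers summed to 9.93 to 604 TPM over the 3 embryos, and their part in the levels was not tested.

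Blood cells do not build sarcomeres, yet UMIs of the 10 genes were counted in those of the heart. The 16 heart HC cells held 3260 TPM of the 10 genes, or 6.14% of the level in cardiomyocyte-like cells. In single hearts, with 1 to 4 such cells each, this ran from 1.54% in E11.5 embryo 2 to 10.1% in E11.5 embryo 1. In liver HC cells the sum was 57 TPM. Each of the 16 cells had at least 3 members at 100 TPM or more. Myl7 was 5.96, 5.71 and 7.13 in the embryos with at least 3 cells, and 0.04 to 0.54 in 5 embryos of liver HC cells.
All 10 members were higher in heart HC than in liver HC cells, where 0.63% of 11910 genes were called higher and 0.873% in all. The difference ran from 2.29 for Myh6 to 6.09 for Myl7 (SE 0.36, limma adjusted p = 4.46e-05), with no overlap for any member, higher in 2 of 2 embryos with both, and a median of 4.79. At least Myl2, Myh7, Actc1 and Myh6 passed the filter on low genes only through the heart HC cells. In liver HC cells Myl2 and Myh7 had 0 UMIs, 1.12% of cells had a UMI of Actc1, and Myh6 reached 7.7 TPM at most. The calls of these members are thus a description and not a test. With the embryo as a block 4 members passed: Myl4, Myl7, Tnnt2 and Actc1. The make-up of the 10 genes in heart HC cells followed that of the cardiomyocyte-like cells within 2.96 percentage points for every gene (Myl7 23.3% against 23.8%, Actc1 23.4% against 25.2%). In the single embryos the largest gap was 3.80 to 10.6 points, over 1 to 4 blood cells each. The cardiomyocyte markers summed to 390 to 1749 TPM in heart HC cells and to 0.958 to 13.7 TPM in liver HC cells. Free RNA and myocytes picked together with a blood cell cannot be told apart here.

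The other heart cells were set beside the heart HC cells without a test. Myl7 in the epicardial-like cells (7.56 to 8.91) was above the heart HC range (5.71 to 7.13), and Myl2 in them (2.21 to 4.94) overlapped that range (3.58 to 6.75). In the epicardial-like cells the largest gap from the cardiomyocyte-like make-up was 35.7 points, for Myl7, and in the liver Mes cells 22.9 points, also for Myl7. In the unnamed cluster it was 9.12 points, for Tnni1. In liver HC cells, Tnni1 took 54.6% and Tnni3 37.9% of the 4923 UMIs of the 10 genes, and Myl2 and Myh7 had 0 UMIs in 178 cells. Of the liver HC cells 55.6% had a UMI of Tnni1 and 34.8% one of Tnni3 (38.0% and 28.3% of 166 cells thinned to 100000 UMIs), and 1.12% had one of Actc1.

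The genes whose pattern was most like that of the members were ranked by Pearson correlation. Over 85 embryo means of the 15 cell sets, the mean of the 10 genes correlated best with Csrp3 (r = 0.987), Tnnc1 (0.975), Ankrd1 (0.971), Mybpc3 (0.966) and Ldb3 (0.963). These means share embryos, and the heart sets hold most of their range. Over the 236 heart MC cells, Tnnc1 was the closest gene for 6 of the 10 members (Myl3, Myl4, Tnnt2, Tnni1, Tnni3 and Actc1, r from 0.866 to 0.973). Myl2 was closest to Pln (0.805), Myl7 to the small heat shock protein gene Cryab (0.881), Myh6 to Csrp3 (0.808) and Myh7 to Mybpc3 (0.734).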

How the data were processed

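Single cells of mouse embryos were measured by a modified STRT protocol with UMIs. Per the study's methods the authors mapped the reads to mm10 with TopHat 2.0.12 and counted uniquely mapped reads with HTSeq (version not given in the sources used here). The deposited values, named TPM in the files, are CPM, a gene's UMI count scaled to 1000000 in each cell. All 11760022 values above 0 gave a whole UMI count within 0.05, and no column of another sample was present. No cell name was shared by 2 files. Cell groups came from the authors' cell annotation, which kept cells with at least 2000 genes. An embryo's level was the mean over at least 3 cells of log2(TPM/10 + 1), a scale that understates the change of low genes. Genes that reached 1 in 3 or more of the cells compared were fitted together with limma 3.58.1 in R 4.3.3 (trended variance, Benjamini-Hochberg adjustment), and a call needed an adjusted p under 0.05 and a difference of 1 (log2) or a slope of 0.5 per day, or more. Replicates are embryos. Same-numbered samples come from 1 embryo, and deviations of the 2 sets from their group means correlated at 0.144 to 0.450 for heart and somite, 0.280 to 0.387 for heart and liver Mes and 0.356 to 0.399 for heart and liver HC. Alternatives were another pseudocount, no filter, thinning to 100000 UMIs (1574 cells left), at least 5 cells per mean, edgeR 4.0.16 on summed UMIs, leaving out each embryo, the embryo as a block and, chosen after seeing the data, both cells of equal pairs kept, HiSeq 4000 embryos only and cardiomyocyte-like cells only. Heart cells were clustered on 1000 genes and 15 principal components, without the members; doublets were not called. The fits were tested on simulated data. All 10 members are named in every comparison, and of each list at most 4 genes are given values, in list order from those called. The members and lists were chosen with earlier results of these data known.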

Additional observations from a re-analysis of the deposited data

Results flagged for a closer look

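Of 24 groups of at least 4 embryos checked, 2 held an embryo far from the others, where chance gives about 1 in 20. Tnnt2 in somite MC cells was 4.08 in E11.5 embryo 2, against 0.15 to 1.67 in the other embryos. Tnni3 in cardiomyocyte-like cells was 5.90 in E9.5 embryo 2, against 7.36 to 8.12 in the others. Members were also found in cells outside the comparisons. In 5 liver cells of E9.5 embryo 1 that are mesoderm-derived but not named mesenchymal, Myl7 was 8.40 and Actc1 6.08. In 10 such lung cells of E9.5 embryo 2, Myl7 was 3.65 and Actc1 3.02.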

How the results depend on the processing

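Of the values of single members under the alternatives, 927 kept their direction and side of the threshold, 62 lost and 27 gained a call and 30 changed sign; the cause was not tested. All 10 members were called between heart MC and somite MC cells under every alternative run. The number of members called by day in heart MC cells was 1 with thinned cells, 0 with edgeR, 6 for E11.5 against E10.5 and 1 to 4 with an embryo left out. In cardiomyocyte-like cells it was 0 without the filter. Between heart MC and liver Mes cells it was 2 without the filter, 2 with edgeR and 0 to 6 with an embryo left out. For liver Mes against other Mes cells it was 6 with edgeR and 0 to 3 with an embryo left out. In the somite by day it was 1 on the log2(TPM + 1) scale and 0 to 1 with an embryo left out, and for somite against other Mes cells 5 with edgeR. With the embryo as a replicate block, 4 members were called between heart HC and liver HC cells and 8 between heart MC and liver Mes cells, and the block changed no other call of a member. Signs changed as follows, none of them called. By day in heart MC cells, thinning gave Myl7 −0.15, Tnnt2 −0.23 and Actc1 −0.10, leaving out an embryo gave Tnnt2 −0.23 to 0.40 and Myh7 −0.47 to 0.26, and E11.5 against E10.5 gave Myh7 1.23. In cardiomyocyte-like cells edgeR gave Myl7 0.26 and Myh7 0.009, leaving out an embryo gave Myl7 −0.17 to 0.115, Tnnt2 −0.0405 to 0.15 and Myh7 −0.63 to 0.17, and E11.5 against E10.5 gave Myl4 −0.19 and Myh7 1.15. In the somite by day, the log2(TPM + 1) scale gave Myl2 −0.0199, Tnni3 −0.0041 and Myh6 −0.0013, thinning Tnni3 −0.0076, edgeR Tnni3 −0.19, leaving out an embryo Tnni3 −0.0531 to 0.0402 and Myh6 −0.0029 to 0.0336, E11.5 against E10.5 Myh6 −0.0842 and the HiSeq 4000 embryos Myh6 −0.0045. For somite against other Mes cells, at least 5 cells gave Tnni3 0.0053, leaving out an embryo Tnni3 −0.0222 to 0.0149 and Myl7 −0.24 to 0.10, and edgeR Myl2 0.70. The slope of the Myl3 share was 10.4 points for E11.5 against E10.5 and −3.82 to 1.43 with an embryo left out. That of the Tnni3 share was 1.38 as a mean over cells, 8.20 for E11.5 against E10.5 and −4.09 to 4.93 with an embryo left out, and that of the cardiomyocyte-like share −3.43 to 6.799 with an embryo left out. Over all genes, calls by day in heart MC cells were 83 higher and 2766 lower on the log2(TPM + 1) scale, 9 and 633 without the filter, 36 and 502 thinned and 3 and 5 with edgeR; in cardiomyocyte-like cells 90 and 3723, 0 and 0, 35 and 328, and 82 and 22. For E11.5 against E10.5 they were 35 and 155, and 7 and 45. The log2(TPM + 1) scale moved the median slope of all genes to −0.32 and −0.50 in these sets. Between heart MC and somite MC cells calls were 737 and 1956 on that scale and 395 and 1397 with cardiomyocyte-like cells only. Between heart MC and liver Mes cells they were 18 and 0 without the filter, 40 and 0 with edgeR, 215 and 197 with the block and 307 and 183 with cardiomyocyte-like cells only. For liver Mes against other Mes cells they were 24 and 6 without the filter, 137 and 22 with edgeR and 78 and 23 with the block. In the somite by day they were 19 and 8 on the log2(TPM + 1) scale, 4 and 2 with edgeR, 15 and 19 for the later days and 8 and 8 for the HiSeq 4000 embryos. For somite against other Mes cells they were 215 and 143 on that scale and 579 and 187 with edgeR. Between heart HC and liver HC cells they were 180 and 68 on that scale, 51 and 8 thinned, 41 and 10 with edgeR and 4 and 0 with the block. The fit of heart HC against liver HC with at least 5 cells per mean was not run, since too few embryos had them.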

Other observations

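Myl7, the atrial regulatory light chain, was also counted in epithelial and neuronal cells. In cells thinned to 100000 UMIs, 62.5% of skin Epi, 60.9% of liver Epi, 56.5% of lung Epi, 55.1% of intestine Epi and 46.3% of hindbrain NC cells had a UMI of it (73.1%, 74.5%, 55.8%, 63.3% and 63.4% at full depth), and 7.83% of liver HC cells (21.3% at full depth). In lung Epi cells it was 4.26 and 2.87 in embryos 2 and 3 of E9.5, 1.01 and 1.72 at E10.5, and 0.61 and 0.00 at E11.5, and it took 89.5% of the UMIs of the 10 genes there. In intestine Epi cells Myl7 was 1.60 ± 1.09 (SD over embryos), taking 54.7% of these UMIs, with Myl3 at 27.6%. In 3 epithelial or neuronal cells of the heart of E10.5 embryo 2, Myl7 was 5.73 and Actc1 5.61. Each of the 31 heart cells with no major group had at least 7 members at 100 TPM or more; their median depth was 15542 UMIs, against 3589834 in 1 cell of E9.5 embryo 2.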
